A study of Saccharomyces cerevisiae with 9 samples.

Results

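The genes described here encode the machinery that brings proteins into mitochondria. They are 34 genes taken by symbol, out of 6215 genes in the table, and all 34 passed the minimum mean of 10 normalized reads, with means over the 9 libraries of at least 176. A normalized read count is the number of reads on a gene divided by 1 size factor per library. Polyadenylated RNA was measured in haploid budding yeast cultured at 28 °C for 24 h in SC, a synthetic complete medium, with 3 libraries of each strain, which the labels call biological replicates. The triple mutant lacked SEG1, NCE102 and PIL1 and carried LYS2 and MET15. Reads of MET15, unlike those of LYS2, were present in every library of all strains. The pil1 strain had PIL1 replaced by kanMX4 in the BY4742 background. The wild type was BY4742 itself, and both it and the pil1 strain were lys2Δ0. All strains were MATα with his3Δ1, leu2Δ0 and ura3Δ0. Because LYS2 differs together with the 3 deletions, their parts in any difference between the triple mutant and the other strains cannot be told apart. Whether each strain was 1 clone is not stated in the labels.

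The 3 deleted genes encode parts of the eisosome, a protein assembly beneath furrows of the plasma membrane. Mitochondrial import lies elsewhere in the cell. Nearly all mitochondrial proteins are made in the cytosol and enter through the translocase of the outer membrane (TOM), whose receptors bind them and whose Tom40 channel lets them pass. From there the sorting and assembly machinery (SAM) inserts barrel proteins into the outer membrane, small Tim chaperones carry metabolite carriers to the TIM22 complex, and the TIM23 complex with its import motor draws proteins with a presequence into the matrix. Mia40 and Erv1 fold cysteine-rich proteins in the intermembrane space, and the Mas1 and Mas2 peptidase removes presequences. Budding yeast represses respiratory genes while glucose is ample, so demand on this machinery differs between fermenting and respiring cells.

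A sequence element sets many import genes apart from most yeast genes. The RNA-binding protein Puf3 is known to bind 3′ untranslated regions at TGTANATA, mainly in messages of mitochondrial proteins. These 8 letters, read on the coding strand only, were present within 250 bases after the stop codon in 23 of the 34 import genes (67.6%), and in 906 of 5919 searched yeast genes (15.3%). No match of an import gene lay inside another annotated gene. The share was 98.5% among 68 mitochondrial ribosomal protein genes and 19.4% among 36 subunit genes of the respiratory chain or ATP synthase. All 5 small Tim genes, all 3 genes of the TIM22 list and all 4 of TOM40, TOM5, TOM6 and TOM7 held it, and none of the 3 SAM genes did. Windows of 30 bases are shown for genes that rose in the triple mutant against wild type (MIA40, MGE1 and TOM70), did not pass the test (TIM9, TIM10, TIM22 and TIM54) or were called lower (TOM5). Capitals mark the element, the sequence is that of the coding strand from the R64 reference, and the nearer to the stop codon of 2 matches is shown for TOM5:
MIA40 (chrXI:77077-77106, plus strand): aggatgatacaTGTAAATAcagtaatatta
MGE1 (chrXV:775340-775369, plus strand): ctacgtttactTGTATATAtttgtaaacta
TOM70 (chrXIV:398472-398501, minus strand): ctctttcattcTGTAAATAattagcagtgc
TIM9 (chrV:117521-117550, plus strand): catttttagcaTGTAAATAtaaagagaaac
TIM10 (chrVIII:115498-115527, minus strand): gattcatatccTGTATATAcaagtaacatt
TIM22 (chrIV:67928-67957, minus strand): tgttttatattTGTAAATAtcacctatctt
TIM54 (chrX:335827-335856, plus strand): tatataaaatcTGTAAATAtaataaaatgt
TOM5 (chrXVI:797825-797854, plus strand): agagaaagacgTGTAAATAttttttaaaaa

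Promoters were searched for the site of the Hap complex, the activator of respiratory genes, which binds a CCAAT core. In the 300 bases before the start codon, CCAAT on either strand was present in 15 of 34 import genes (44.1%), near the 42% of all genes, against 88.9% of the respiratory chain list. The only matches of TIM54 and MAS2 lay inside the neighbouring genes LOG1 and THR1, which leaves 13 import genes with a match outside annotated genes. The longer form TNATTGGT, which contains the reverse of that core and was also read on both strands, was present in 4 import genes (11.8%), in 5.25% of all genes and in 36.1% of the respiratory chain list. The 4 promoter stretches are shown because all 4 genes rose in the triple mutant. Capitals mark the match, on the gene's own strand in R64:
MIA40 (chrXI:75747-75794, plus strand): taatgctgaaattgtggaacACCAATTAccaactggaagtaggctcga
TOM40 (chrXIII:668452-668491, plus strand): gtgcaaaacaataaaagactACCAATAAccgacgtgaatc
TIM13 (chrVII:858215-858262, plus strand): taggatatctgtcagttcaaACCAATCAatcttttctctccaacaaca
PAM17 (chrXI:566064-566111, minus strand): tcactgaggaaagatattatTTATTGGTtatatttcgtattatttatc
A match is a string of letters and not a measured binding site.

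Library depth was between 21064051 and 27014469 reads. Replicate 1 of the triple mutant stood apart from replicates 2 and 3, with a chi-square per degree of freedom of 396.5 and 311.9 against 52.2 between those. Without it 19 import genes were called higher and 4 lower against wild type, and 18 and 5 against pil1. Replicate 2 stood apart to a lesser degree in the other strains. Its values were 191.2 and 150.4 against 68.1 in wild type, and 146.2 and 102 against 36.1 in pil1. The deleted genes followed the labels: PIL1 had 89.9 to 99.9 normalized reads in the triple mutant, 111 to 116 in pil1 and 15878 to 21404 in wild type. SEG1 had 13.6 to 27.3 in the triple mutant against 6130 to 7179 in wild type, and NCE102 had 139 to 239 against 83910 to 106366. LYS2 had 24790 to 35639 in the triple mutant and 0 in every pil1 and wild type library. MET15, listed under its other name MET17, had 11032 to 18779 in the triple mutant. It had 21099 to 25232 in pil1 and 23890 to 28256 in wild type. The 4 marker genes of MATα cells summed to 5759 to 6832 normalized reads in the triple mutant, 11883 to 12546 in pil1 and 14707 to 16365 in wild type, and none of them was at 0. The 7 marker genes of MATa cells summed to 3173 to 3320, 3559 to 3862 and 3492 to 3897 in the same order of strains, most of it from STE6, and none was at 0. All 4 MATα markers were called lower in the triple mutant than in wild type by limma at an adjusted p under 0.05. Of the 7 MATa markers 5 were called lower and 1, STE6, higher. Over all genes 30.9% were called lower and 30.1% higher. The part of other cells in any result was not tested. In bulk RNA a smaller share of cells expressing a gene and less RNA per cell cannot be told apart.

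In wild type, SSC1 was by far the most abundant import transcript per length, and the receptor paralog TOM71 and the carrier chaperone TIM12 were the least abundant. On the scale of normalized reads per kb of coding length, the level of SSC1, the mitochondrial Hsp70 that pulls proteins into the matrix, was 30758 ± 1257 in the triple mutant and 14012 ± 1465 in wild type (SD, n = 3 each). The next level in wild type was that of TIM10 at 4784 ± 360, followed by ERV1 at 4465 ± 336 and TOM7 at 4259 ± 186. These 3 neighbours overlap within their SD. At the low end, TIM12 had 560 ± 74.3 and TOM71 567 ± 18, again within their SD of each other, and SAM50 and SAM37 had 738 ± 75.8 and 765 ± 50.9. Within the same complex, the wild type level of TOM22 was 3989 ± 145 per kb and that of the other receptor TOM20 was 1767 ± 146. Several import genes are very short (TOM5 has 153 coding bases and SSC1 1965), and the fragment selection and counting behind these values are not given, and the part of length in these levels was not tested.

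**Figure D1:**
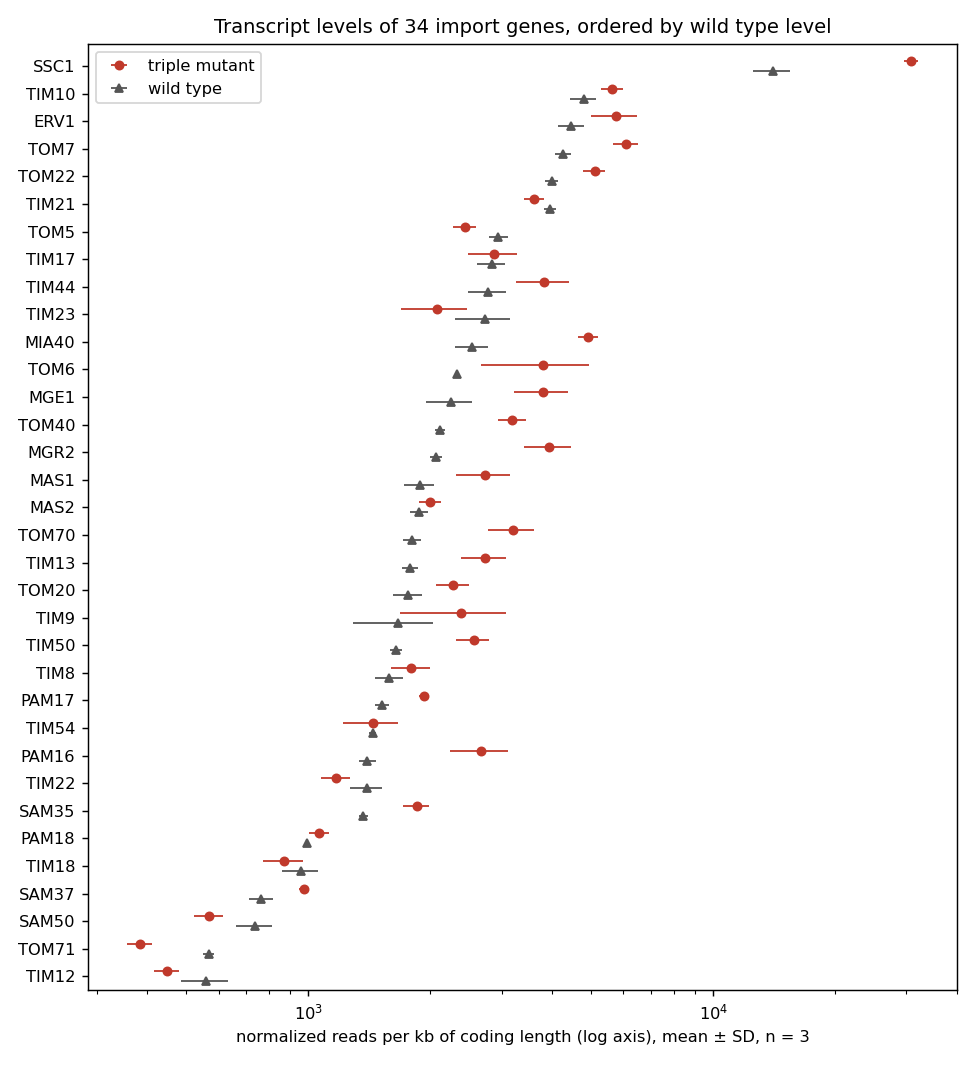
Normalized reads per kb of coding length (log axis) for 34 import genes, mean ± SD of 3 libraries, with the triple mutant as circles above wild type as triangles. Genes run down the page by wild type level, from SSC1 at 14012 to TIM12 at 560 per kb.

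Against wild type, the triple mutant had a moderate and uneven rise of the import machinery. By limma at an adjusted p under 0.05, 19 of 34 import genes rose and 3 fell, and 12 did not pass the test. Over all 5886 genes tested, 60.9% were called, 30.1% higher and 30.9% lower, so the share of import genes that rose (55.9%) lay above the background and the share that fell (8.82%) below it. The median log2 fold change of the 34 was 0.35, or 1.28-fold, beside -0.01 over all genes. Of the 19, 10 rose by more than 1.5-fold, as did 17.5% of all genes, and 1, SSC1, by at least 2-fold, as did 7.95%. The libraries of the 2 strains did not overlap for 20 import genes with the triple mutant higher and 5 with it lower (32.7% and 32.9% of all genes). Relative to the wild type mean, the median of the 34 genes was 0.39, 0.25 and 0.35 (log2) in triple mutant replicates 1 to 3 and between -0.03 and 0.04 in wild type libraries.

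Library scaling weighs on these counts. With libraries scaled by total reads, the all-gene median shifted to -0.23 (log2) and the calls among import genes became 9 higher and 8 lower (1029 and 2377 over all genes). The median of the 34 was then 0.13, which is 0.36 above the median of all genes, as it was with the deposited size factors. No import gene called in both settings changed direction. The genes called higher in all 19 alternatives run were 9, namely TOM40, TOM70, TIM13, TIM50, PAM16, MGR2, MIA40, SSC1 and MGE1.

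**Figure D2:**
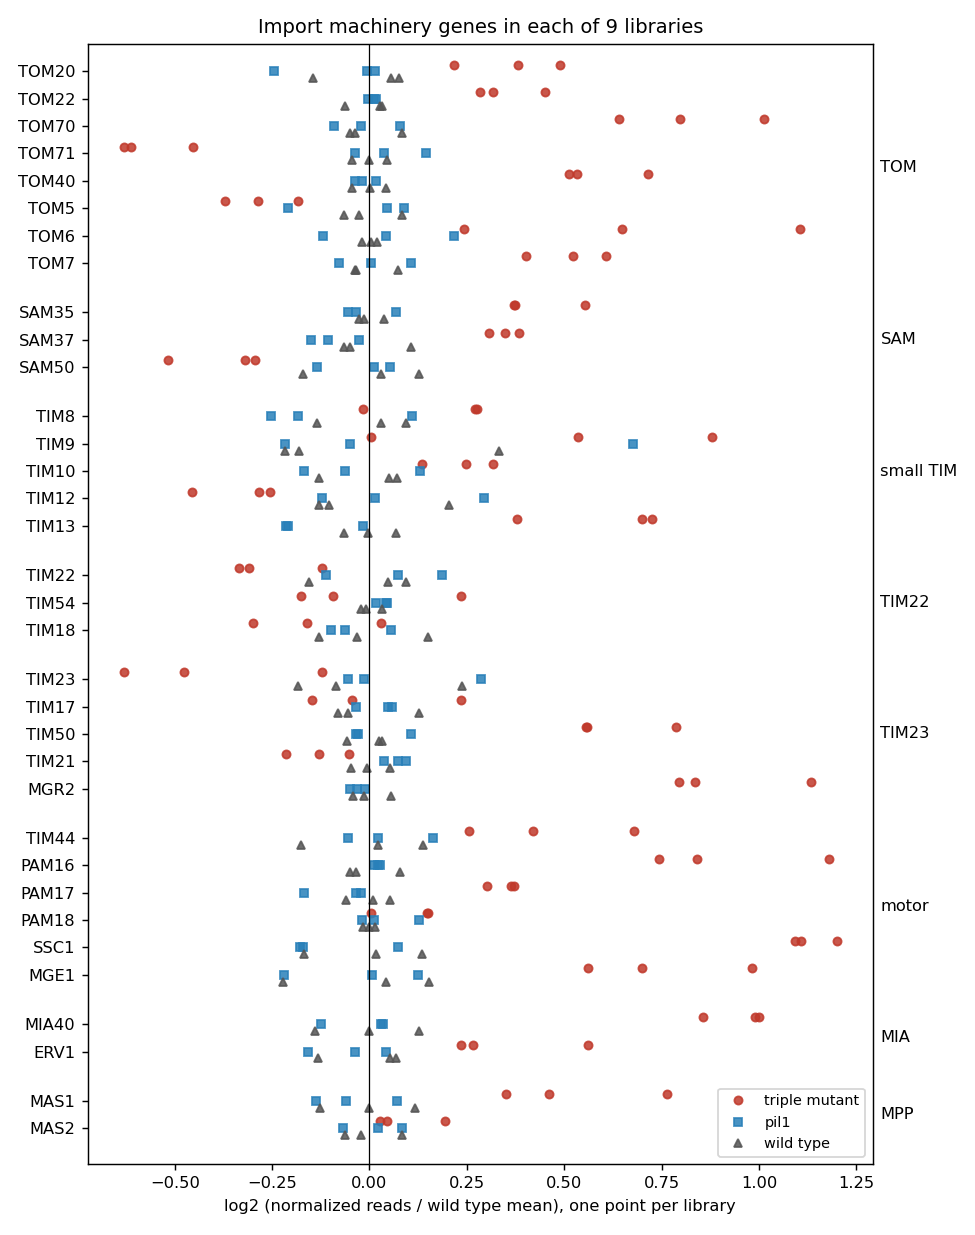
Log2 of the normalized reads over the wild type mean (x axis) for each import gene, 1 point per library, in the order triple mutant, pil1, wild type from top to bottom within a gene. Triple mutant points for SSC1, MIA40, MGR2 and PAM16 lie far to the right of the other strains, those of TOM71 and SAM50 lie to the left, and pil1 and wild type points overlap.

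The import motor rose nearly throughout, with 5 of its 6 genes called higher and 0 lower (30.1% and 30.9% of all genes). SSC1 (YJR045C, chromosome X, 519638 to 521602) had 63264, 58681 and 59375 normalized reads in the triple mutant, 24314, 28968 and 24454 in pil1 and 24510, 30243 and 27847 in wild type. Every triple mutant library was far above every other library, and SSC1 was 2.2-fold higher than in wild type (log2 fold change 1.14, SE 0.14, limma adjusted p = 0.000109). Its coding sequence is 77.1% identical over 1853 bases to that of ECM10, a second matrix Hsp70 gene. Whether any reads were shared between these genes was not measured. PAM16, the regulator of the motor's J-protein, had 1428, 1055 and 1128 normalized reads in triple mutant libraries against 665, 609 and 615 in wild type and rose 1.9-fold (adjusted p = 0.000124). PAM18, the J-protein itself, had 556, 557 and 503 against 507, 502 and 496, and did not pass the test (log2 fold change 0.10, 95% interval -0.09 to 0.29). MGE1, the nucleotide exchange factor of Ssc1, rose 1.69-fold, with 3050, 2277 and 2506 normalized reads against 1715, 1324 and 1589. TIM44, which tethers the motor to the channel, rose 1.37-fold to 4949 ± 740 against 3593 ± 388, and PAM17, a further motor subunit, rose 1.27-fold to 1146 ± 30.8 against 901 ± 35.3. Under total-read scaling TIM44 and PAM17 were not called (limma adjusted p = 0.0819 and 0.418).

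The presequence translocase TIM23 was split. MGR2, which gates lateral release of proteins from the complex, had 1552, 1263 and 1226 normalized reads in the triple mutant and 735, 700 and 687 in wild type, a 1.89-fold rise (log2 fold change 0.92, SE 0.10, limma adjusted p = 5.75e-05). TIM50, the receptor of the complex, had 4059, 3461 and 3466 against 2407, 2260 and 2396, a 1.55-fold rise. For both genes the strains did not overlap. The channel subunits did not share this. TIM23 had 1675, 1178 and 1310 normalized reads in triple mutant libraries against 2148, 1604 and 1717 in wild type, with replicate 1 the highest in both strains and overlapping libraries (log2 fold change -0.40, SE 0.16, limma adjusted p = 0.0572). Its partner TIM17 had 1590, 1220 and 1311 against 1477, 1301 and 1279 (log2 fold change 0.02, 95% interval -0.23 to 0.26), and TIM21, which links TIM23 to TOM and the respiratory chain, had 2457, 2604 and 2747 against 2756, 2837 and 2953 (log2 fold change -0.13, not called). TIM23 was called lower in 6 of the 19 alternatives, among them that without triple mutant replicate 1 (log2 fold change -0.54, limma adjusted p = 0.0153) and that without wild type replicate 2, within a range of adjusted p between 0.00129 and 0.192.

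Of the genes of the carrier translocase TIM22, 0 of 3 were called by limma (60.9% of all genes), and 1, TIM22, had an unadjusted p under 0.05 (64.9% of all genes). TIM22, the channel, had 799, 702 and 690 normalized reads in triple mutant libraries against 929, 900 and 781 in wild type (log2 fold change -0.25, adjusted p = 0.0736). TIM54, which helps bind the small Tim chaperones, had 2437, 1835 and 1942 against 2118, 2057 and 2039 (log2 fold change -0.01), and TIM18 567, 497 and 451 against 616, 507 and 543 (log2 fold change -0.14). The libraries of the strains overlapped for all 3 genes, and their 95% intervals lay between -0.50 and 0.22. TIM22 was called lower in 4 of the 19 alternatives, with limma or edgeR adjusted p between 0.0156 and 0.207 over all of them, among them those without triple mutant replicate 1 (0.0406) or wild type replicate 3 (0.0453), and TIM18 in 1, scaling by total reads (0.0323, in a range up to 0.696).

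Among the small Tim chaperones 1 of 5 genes was called, where 60.9% of all genes were called either way. TIM13 had 940, 738 and 923 normalized reads in triple mutant libraries against 567, 543 and 595 in wild type and rose 1.52-fold (limma adjusted p = 0.00148). TIM8, which forms a complex with Tim13, had 504, 413 and 506 against 427, 381 and 446 and did not pass (log2 fold change 0.18, 95% interval -0.12 to 0.47). TIM9 had the widest error of the 34 genes (SE 0.28), with 808, 440 and 636 normalized reads in the triple mutant, 378, 424 and 702 in pil1 and 378, 387 and 553 in wild type, and its interval of -0.15 to 1.14 leaves its difference poorly fixed. Its partner TIM10 had 1682, 1480 and 1601 against 1418, 1233 and 1397 (limma adjusted p = 0.0694), and TIM12, the member bound to the TIM22 complex, had 155, 152 and 135 against 169, 213 and 172 (limma adjusted p = 0.0868). Libraries of TIM10 and TIM12 did not overlap between the strains, with TIM10 higher and TIM12 lower in the triple mutant. With the replicate number as a block both were called (adjusted p = 0.044 for TIM10 and 0.0407 for TIM12 by limma), and total-read scaling also called TIM12 (0.0352). Over the 19 alternatives adjusted p was between 0.044 and 0.942 for TIM10 and between 0.0352 and 0.268 for TIM12.

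In the outer membrane, the receptor genes moved in opposite directions. TOM70 (YNL121C, chromosome XIV, 398684 to 400537), the receptor for carriers and other proteins with internal signals, had 6755, 5220 and 5817 normalized reads in the triple mutant, 3537, 3295 and 3144 in pil1 and 3546, 3233 and 3261 in wild type. It rose 1.76-fold (log2 fold change 0.82, SE 0.10, limma adjusted p = 0.000165). TOM71 (YHR117W, chromosome VIII, 342349 to 344268), its low-abundance paralog, had 795, 703 and 712 in the triple mutant, 1204, 1118 and 1062 in pil1 and 1124, 1089 and 1055 in wild type. It fell 1.48-fold (log2 fold change -0.57, SE 0.08, limma adjusted p = 0.000371). No triple mutant library overlapped a library of another strain for either paralog, and both calls were kept in all 19 alternatives. The coding sequences of the pair are 63.7% identical over 620 aligned bases. TOM20, the receptor for presequences, rose 1.29-fold, with 1369, 1134 and 1271 normalized reads against 1029, 883 and 1015, and TOM22, the central receptor, 1.28-fold, with 2504, 2230 and 2282 against 1873, 1865 and 1754. Without wild type replicate 2 TOM20 was not called (limma adjusted p = 0.0542, in a range between 0.00124 and 0.236). Scaling by total reads left both TOM20 and TOM22 uncalled (limma adjusted p = 0.236 and 0.328). TOM20 lies 5002 bases from PIL1 on chromosome VII, and it was not called in pil1 (log2 fold change -0.08, SE 0.11).

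The channel gene TOM40 had 4047, 3516 and 3565 normalized reads in triple mutant libraries against 2390, 2536 and 2468 in wild type and rose 1.5-fold (limma adjusted p = 0.000194). Of the small subunits that surround the channel, TOM7 rose 1.42-fold to 1112 ± 78.6 against 779 ± 34.1. TOM6 rose 1.58-fold, with 932, 512 and 679 against 434, 427 and 439, and the wide spread in the triple mutant came from replicate 1. Without that library its log2 fold change was 0.44 in place of 0.66. Scaling by total reads left TOM7 and TOM6 uncalled (limma adjusted p = 0.0788 and 0.0519). TOM6 was also not called without replicate 1 of both strains (0.059). TOM5 was called lower, with 370, 349 and 397 against 478, 431 and 443 (log2 fold change -0.28, SE 0.11, limma adjusted p = 0.0485). That call was lost in 11 of the 19 alternatives, among them each one that left out a single library other than pil1 replicate 2, and adjusted p ranged between 0.00348 and 0.189 over the 19.

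Calls within the SAM complex also ran both ways. SAM35 and SAM37, its subunits on the cytosolic side, rose 1.35-fold and 1.27-fold, with 1990, 1757 and 1752 normalized reads in triple mutant libraries against 1391, 1342 and 1330 in wild type for SAM35. SAM37 had 931, 982 and 958 against 728, 811 and 720. SAM50, the barrel protein at the core of the complex, had 750, 876 and 860 against 955, 1172 and 1096 and fell 1.29-fold (log2 fold change -0.37, SE 0.10, limma adjusted p = 0.0123). For each of the 3 genes the strains did not overlap. Under total-read scaling SAM35 and SAM37 were not called (limma adjusted p = 0.108 and 0.449), while SAM50 was called lower in all 19 alternatives.

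Both genes of the intermembrane space relay rose. MIA40, the oxidoreductase that traps cysteine-rich proteins, had 6123, 5578 and 6169 normalized reads in the triple mutant, 2829, 3148 and 3155 in pil1 and 2798, 3367 and 3082 in wild type. Its rise of 1.94-fold had the smallest p of the 34 genes (log2 fold change 0.95, SE 0.09, limma adjusted p = 3.68e-05). ERV1, the sulfhydryl oxidase that recharges Mia40, had 2994, 3061 and 3753 against 2669, 2324 and 2642, a 1.28-fold rise. Its call was lost without triple mutant replicate 3 (limma adjusted p = 0.0649) or wild type replicate 2 (0.0591), within a range between 0.00516 and 0.32. Of the processing peptidase, the subunit gene MAS1 rose 1.44-fold, with 4448, 3608 and 3338 against 2400, 2842 and 2616. Scaling by total reads left MAS1 uncalled (limma adjusted p = 0.102). MAS2 had 2773, 2808 and 3115 against 2882, 2605 and 2681 (log2 fold change 0.09, 95% interval -0.09 to 0.27).

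**Figure D3:**
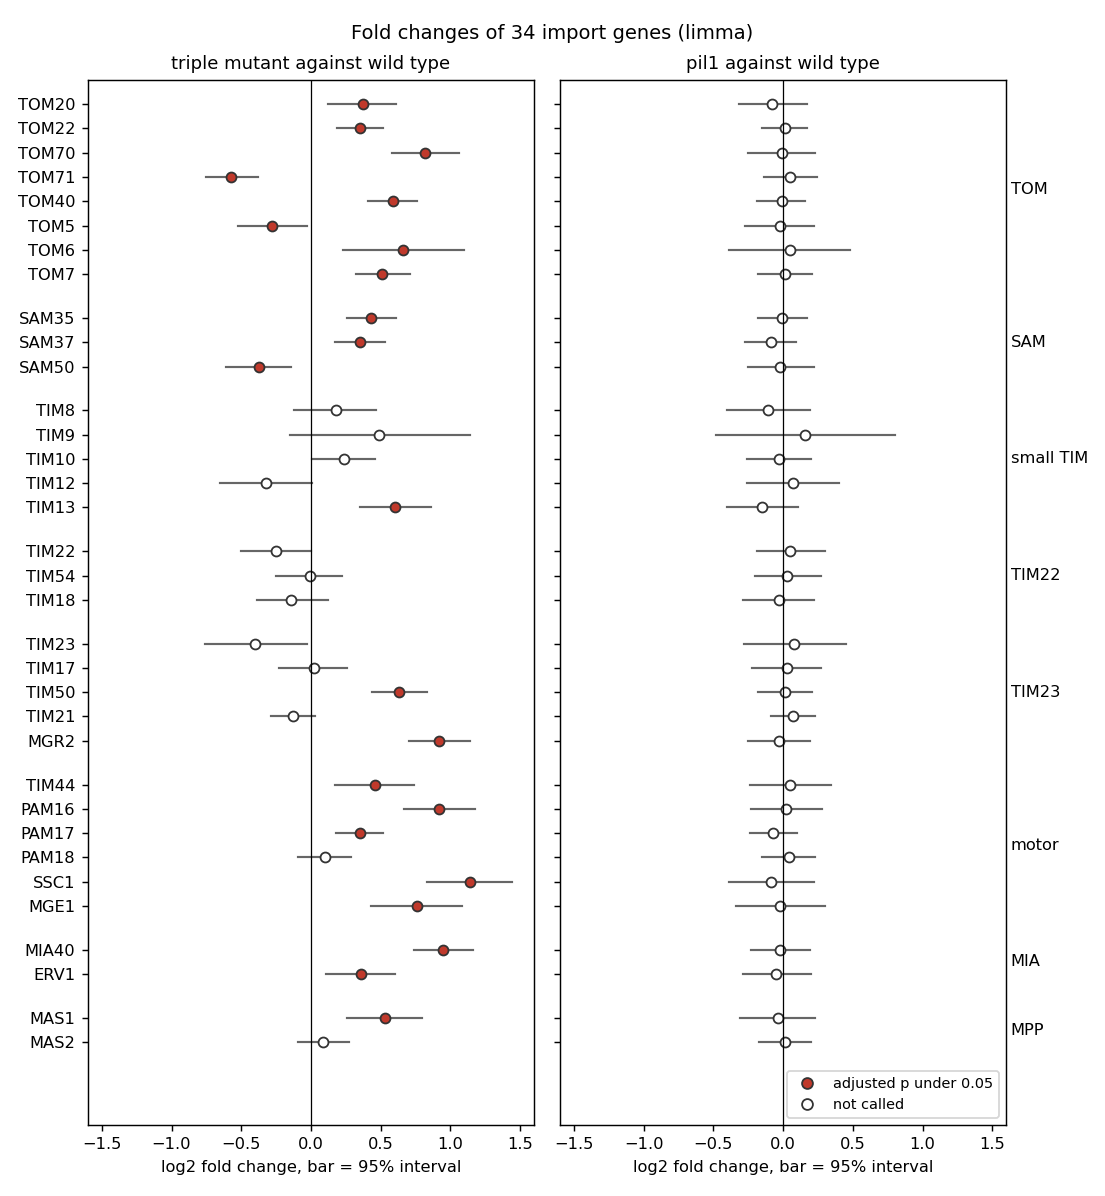
Log2 fold change with its 95% interval for each import gene, triple mutant against wild type on the left and pil1 against wild type on the right. Filled points passed an adjusted p under 0.05 by limma, 22 genes on the left and 0 on the right.

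Proportions between partner subunits do not depend on how libraries were scaled, and ratios of reads per kb were taken for 10 pairs. TOM71 to TOM70 was 0.114, 0.13 and 0.118 in the triple mutant, 0.329, 0.328 and 0.326 in pil1 and 0.306, 0.325 and 0.312 in wild type, a log2 difference of -1.39 between the triple mutant and wild type. PAM16 to PAM18 was 2.89, 2.13 and 2.53 against 1.48, 1.37 and 1.4 in wild type, and MIA40 to ERV1 was 0.962, 0.857 and 0.773 against 0.493, 0.681 and 0.549. TIM8 to TIM13 was 0.646, 0.674 and 0.66 against 0.907, 0.846 and 0.903. The strains did not overlap for 7 of the 10 pairs. Each of these had p = 0.1 by the exact two-sided permutation test, the smallest that 3 libraries against 3 allow, and an adjusted p of 0.143 over the 10 pairs, so none could pass the threshold. For SSC1 to MGE1 and MAS1 to MAS2 the ratios overlapped (exact p = 0.2 each), and those of TIM9 to TIM10 overlapped too (exact p = 0.4).

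**Figure D4:**
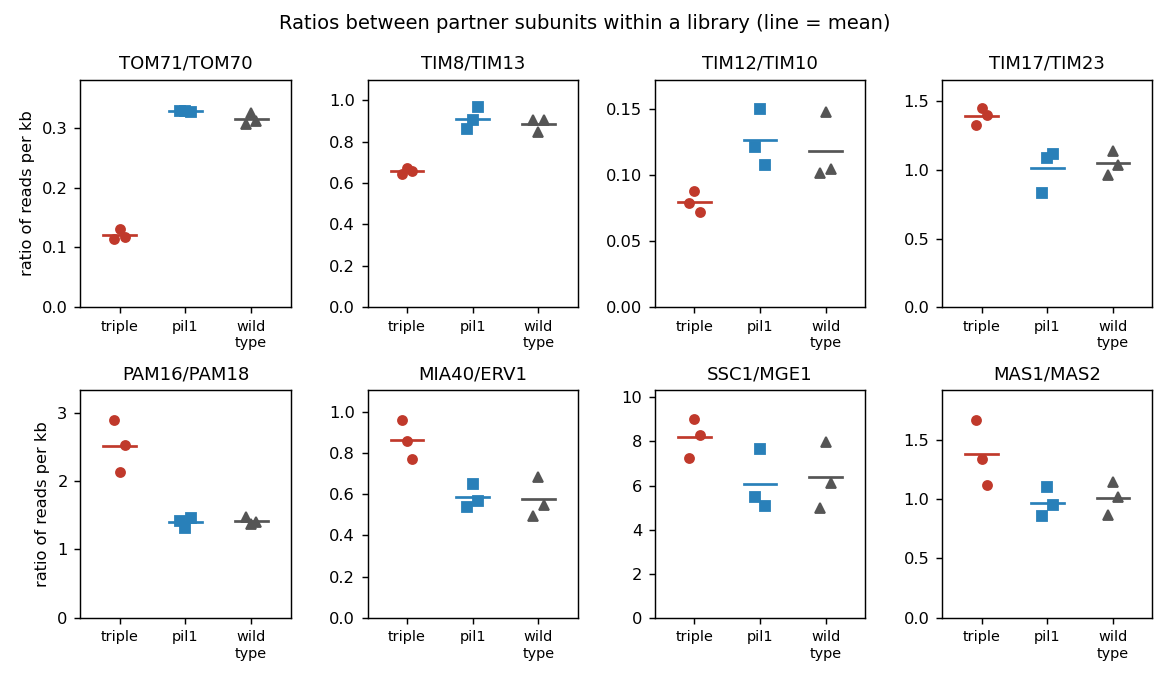
Ratios of reads per kb between partner subunits, 1 point per library and a line at the mean, for the triple mutant, pil1 and wild type from left to right. The TOM71 to TOM70 ratio lies at 0.114 to 0.13 in the triple mutant and above 0.3 in all other libraries.

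The triple mutant was also compared with pil1. This comparison shares its 3 triple mutant libraries with the one above, so the values are set side by side only. By limma 20 import genes rose and 6 fell, where 30.8% of all genes were called higher and 32.1% lower, and the median of the 34 was 0.41 (log2) beside -0.01 over all genes. SSC1 had a log2 fold change of 1.23 (SE 0.14), MIA40 0.97 (SE 0.09), MGR2 0.95 (SE 0.10) and PAM16 0.90 (SE 0.11). TOM71 was lower by a log2 fold change of -0.61 (SE 0.08), and SAM50 by -0.36 (SE 0.10). TIM10 was called higher here at 0.27, and TIM12, TIM21, TIM22 and TIM23 were called lower at -0.39, -0.20, -0.30 and -0.48, while TOM5 was not called (limma adjusted p = 0.0656). The 6 calls of lower genes were 2 without triple mutant replicate 2, and 3 without triple mutant replicate 3, pil1 replicate 1 or pil1 replicate 3. TOM71 alone of the 6 was called in all 19 alternatives. The call of TIM10 was lost in 9 of them, with a limma adjusted p of 0.156 without pil1 replicate 1 and a log2 fold change of 0.01 under total-read scaling, and adjusted p lay between 0.0205 and 0.957 over the 19. The calls of TIM12 and TIM21 were lost in 8 and 9.

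Between pil1 and wild type no difference in an import gene was detected. Of the 34 genes 0 were called by limma or by edgeR on the recovered reads, and 0 had an unadjusted p under 0.05 by either tool. Over all genes limma called 1, or 0.017%, and 1% had an unadjusted p under 0.05. Log2 fold changes lay between -0.15 for TIM13 and 0.16 for TIM9, with a median of -0.01. The 95% interval lay within 1.5-fold of no change for 33 of the 34 genes (82.1% of all genes), TIM9 being the other. On the scale of normalized reads SSC1 had 25912 ± 2647 in pil1 and 27533 ± 2880 in wild type, TOM70 had 3325 ± 198 and 3347 ± 173, and TIM50 had 2380 ± 134 and 2354 ± 81.6 in the same order (SD, n = 3 each). No import gene had libraries that failed to overlap between pil1 and wild type (3.47% of all genes with pil1 higher and 2.75% with it lower). Numbered replicates of these strains deviated together, and the fit with replicate pairs also called 0 import genes. The intervals, p-values and counts given before it come from fits without pairs.

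Both essential and dispensable genes were among those that rose. Of 20 import genes that yeast cannot live without, 11 were called higher and 1 lower in the triple mutant against wild type, with a median log2 fold change of 0.40. Of 13 dispensable ones, 8 were called higher and 2 lower, with a median of 0.35. The shares called higher were 55% and 61.5%, where 30.1% of all genes were. Those called lower were 5% and 15.4%, where 30.9% of all genes were. TIM54 was placed in neither list. By sequence, the 23 genes with TGTANATA had a median of 0.35, with 11 called higher and 1 lower, and the 11 without it a median of 0.43, with 8 higher and 2 lower. Over all genes tested the median was 0.17 with the element and -0.04 without, and 42.4% and 28.1% were called higher. The 4 genes with TNATTGGT were all called higher with a median of 0.59, where 43.7% of all genes with those letters were called higher and 29.6% of those without. These counts were not tested.

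Other import and maturation factors, taken from a list of genes outside the 34, moved as unevenly. Of 22 such genes 10 were called higher and 4 lower against wild type, with a median log2 fold change of 0.27. These shares, 45.5% and 18.2%, stand beside 30.1% and 30.9% of all genes. MBA1, a ribosome receptor at the inner membrane, had 953 ± 63.3 normalized reads in the triple mutant and 461 ± 27.8 in wild type and was 2.06-fold higher (limma adjusted p = 1.85e-05). IMP2, a subunit of the inner membrane peptidase, rose 1.96-fold, while SOM1, a partner of that same peptidase, fell 1.88-fold, with 286 ± 36.2 in the triple mutant against 535 ± 28.7 in wild type. HOT13, which assists the Mia40 relay, rose 1.82-fold. ECM10, the close copy of SSC1, had 1221 ± 64.8 against 887 ± 51 (log2 fold change 0.46), and MDJ2, the paralog of PAM18, had 99.7 ± 3.27 against 113 ± 8.03 and was not called. MDM10 and MIM2, both of outer membrane protein assembly, fell (log2 fold change -0.75 and -0.62).

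Matrix chaperones and proteases rose more evenly, with 9 of 11 called higher and 0 lower (30.1% and 30.9% of all genes) and a median of 0.65. HSP60, the matrix chaperonin that folds imported proteins, had 32847 ± 2410 normalized reads in the triple mutant and 13227 ± 1628 in wild type, a 2.49-fold rise, and its cofactor HSP10 rose 1.81-fold. SSQ1, the Hsp70 of iron-sulfur cluster synthesis, rose 3.64-fold, and its J-protein partner JAC1 1.79-fold. Adjusted p by limma was between 3.12e-05 and 0.000946 over these 4 genes.

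By median log2 fold change, lists of proteins that pass through the machinery lay on either side of the import genes. The medians of metabolite carriers, clients of TIM22, and of outer membrane barrel proteins, clients of SAM, were 0.21 and -0.37. Both lay below the 0.35 of the import genes, and the medians of 3 other lists lay above it. Summed normalized reads of both lists were nevertheless higher in the triple mutant. Carriers summed to 148203 to 272388 against 73051 to 89860 in wild type, and barrel genes, mostly POR1, to 60897 to 75972 against 25747 to 28598. The import genes summed to 117525 to 132247 against 73872 to 77403. The 5 barrel genes include TOM40 and SAM50, which are import genes themselves, and the median of -0.37 is the value of SAM50. Of the 36 subunit genes of the respiratory chain or ATP synthase, many of which use TOM and TIM23, 36 were called higher, with a median log2 fold change of 2.22, or 4.66-fold. The lowest of them, at 1.58, lay above the highest import gene, SSC1 at 1.14. Of 15 genes of cysteine-rich proteins of the intermembrane space, the class that Mia40 handles, 13 were called higher and 0 lower, with a median of 1.05. Among them CMC2 rose 4.35-fold, MIX14 4.04-fold, COX17, the copper chaperone of cytochrome c oxidase, 2.95-fold, and MDM35 2.12-fold. Of 68 mitochondrial ribosomal protein genes 63 rose and 0 fell, with a median of 0.69. Over all genes 30.1% were called higher and 30.9% lower. The difference between these lists and the import genes was not tested.

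**Figure D5:**
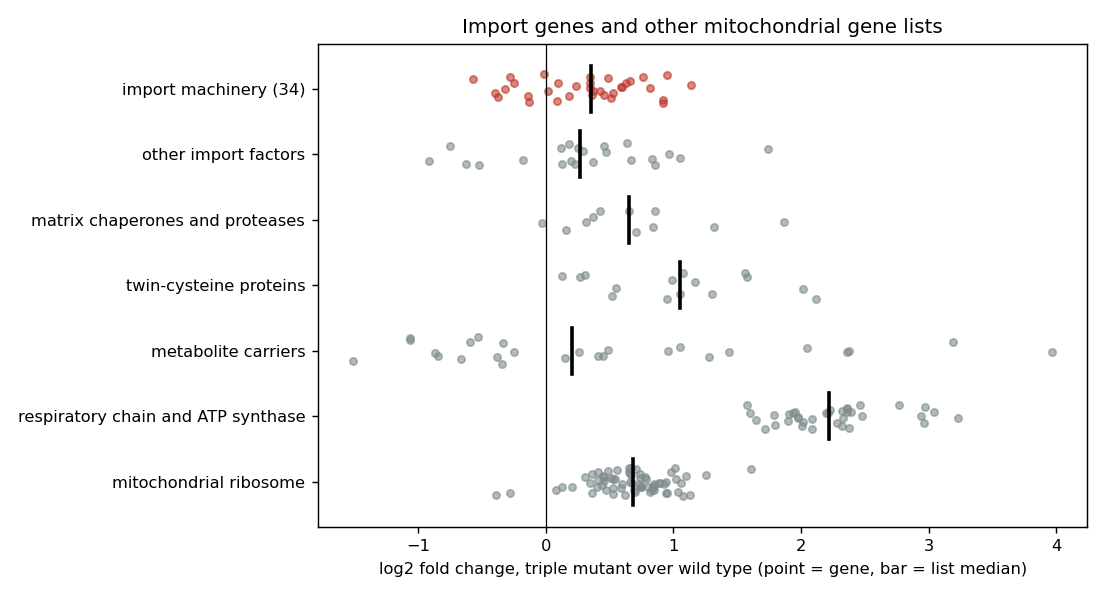
Log2 fold change of each gene in the triple mutant over wild type for the import machinery and 6 other lists of mitochondrial genes, with a bar at each list's median. The import genes spread around 0.35, and all 36 genes of the list of respiratory subunits lie to the right of every import gene.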

How the data were processed

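Per the labels' protocols, washed cells were broken with glass beads and column-purified, DNase-treated RNA was selected for poly(A). GSNAP, DESeq and DESeq2 with build R64 are named, without roles, in the submitters' processing notes. The counter, annotation and strandedness are not given in the sources consulted. The first deposited table holds a signal, reads over a size factor set for each library: 100% of values were whole multiples of 1 read, at a tolerance of 1e-06. The second deposited table holds log2 values from an unstated transformation and served as an alternative.

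The main test was limma (lmFit, then robust eBayes with a trend) on log2(value + 1), on which scale fold changes of low genes are understated. All 9 libraries were fitted with group means, 5886 genes had a mean of at least 10, and two-sided p-values had Benjamini-Hochberg adjustment over all of them. edgeR's quasi-likelihood test on recovered reads was an alternative that called 1798 genes higher and 1806 lower in the triple mutant against wild type. The procedure was also run on simulated independent counts with few changed genes. That setting is unlike these data, and no result here rests on it. Versions were R 4.3.3, limma 3.58.1 and edgeR 4.0.16. Groups hold 3 libraries each, which limits precision. An exact test of 3 against 3 cannot go below p = 0.1.

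Import genes, gene lists and tests were chosen with earlier results of these data known. All 34 import genes are named, with up to 4 of the smallest p from other lists, the deleted genes, LYS2 and MET15. CIS1 and STE6 are named outside that rule. ECM10, MDJ2, MIM2 and the carrier genes AAC1 and AAC3 were named after their values were seen. Positions and bases are those of RefSeq's R64 assembly, whose table held 6212 of 6215 identifiers. Similar copies were sought by blastn, and no import gene overlapped another annotated gene.

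Replicate libraries differed by far more than counting noise (36.1 to 396.5 as chi-square over its degrees of freedom). Deviations of same-numbered pil1 and wild type libraries correlated at 0.639, 0.833 and 0.579. The main fit did not use these pairs, and only the replicate block alternative took them into account. For the triple mutant the correlations were 0.0499, 0.191 and 0.362 with wild type and 0.0694, 0.237 and 0.439 with pil1. These were weak, though each was above every correlation between differently numbered libraries of the same strains. The numbers were not treated as pairs there either, outside the block alternative.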

Additional observations from a re-analysis of the deposited data

How the results depend on the processing

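Each count was recomputed under 19 alternatives: total-read or TMM scaling, the deposited transformed values, a minimum of 50 or none, a pseudocount of 5, a fit of the compared groups alone, a replicate block, edgeR, dropping replicate 1 of both the triple mutant and wild type, and dropping each library. Under total-read scaling the calls against wild type became 9 higher and 8 lower, and 9 were higher against pil1, where all genes shifted by -0.23 and -0.27 (log2). The median of the import genes was then 0.13 against wild type and 0.15 against pil1. With the replicate number as a block, 20 were higher and 6 lower against wild type, and 21 and 7 against pil1, and no called gene changed direction. Same-numbered libraries of the triple mutant and wild type correlated weakly, between 0.0499 and 0.362. Pairing by number was therefore not settled there, and the block was kept as an alternative only. Leaving out single libraries gave 17 to 19 higher and 2 to 4 lower against wild type, and 18 to 21 higher and 2 to 6 lower against pil1. For pil1 against wild type the counts were 0 in every alternative run, the replicate block included, and the median moved from -0.01 to 0.02 under total-read scaling and to 0.03 without wild type replicate 1, with or without triple mutant replicate 1. No other alternative moved a count by more than 1.5 times. Small differences such as those of TOM5, TIM22 and TIM23 lie at the limit that 3 libraries a group allow.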

Other observations

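Genes of the inner membrane carriers, the clients of the TIM22 complex, were called in both directions between triple mutant and wild type. Of 26 carrier genes 11 were called higher and 10 lower, with a median log2 fold change of 0.21. These are 42.3% and 38.5%, where 30.1% and 30.9% of all genes were called higher and lower. PET9, the main ADP/ATP carrier, had 64012 ± 22106 normalized reads in the triple mutant and 11951 ± 1720 in wild type, a 5.19-fold rise, and MIR1, the phosphate carrier, rose 5.14-fold. ODC1, an oxodicarboxylate carrier, rose 9.16-fold, with 6674 ± 4010 against 653 ± 2.26, and triple mutant replicate 1 stood apart at 11293, beside 4075 and 4655 in replicates 2 and 3. MRS3, an iron transporter, fell 1.79-fold (adjusted p = 0.000115 by limma). The minor ADP/ATP carriers moved apart, AAC1 at a log2 fold change of 0.49 and AAC3, at 15.5 ± 7.69 against 42.5 ± 2.44, at -1.51.

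Barrel proteins of the outer membrane were likewise called in both directions, with 2 of 5 higher and 3 lower (30.1% and 30.9% of all genes). The porin gene POR1 had 64962 ± 8157 normalized reads in the triple mutant and 21796 ± 1467 in wild type and rose 2.97-fold, while its paralog POR2 fell 2.12-fold, with 372 ± 58.7 against 790 ± 138. TOM40 rose and SAM50 fell, both of them among the 34 import genes, and MDM10 fell.

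Genes linked to Pdr1 and Pdr3, a drug-transport group known to respond to blocked import together with CIS1, had 2 of 8 called higher and 2 lower, or 25% each, slightly below the shares of all genes. YOR1 rose 1.66-fold and PDR15 1.54-fold, PDR5 fell 1.73-fold and PDR3 1.17-fold. CIS1, whose protein takes part in clearing stalled proteins from the outer membrane, had 839, 583 and 633 normalized reads in triple mutant libraries. It had 434, 529 and 561 in wild type and did not pass the test (log2 fold change 0.42, adjusted p = 0.106 by limma).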
